A study of Homo sapiens with 36 samples.

Results

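This report describes where SCAF4 and SCAF8 clusters lie in 44 genes of nuclear transport, 27 that encode nucleoporins and 17 that encode importins, transportins and exportins. SCAF4 and SCAF8 are RNA-binding proteins that contact the C-terminal domain of RNA polymerase II, and PAR-CLIP maps the RNA that a protein touches in living cells. The genes were chosen by name from the known parts of the pore and the known transport receptors, and a cluster was given to a gene when its midpoint lay on the gene's strand and within its body in GENCODE 44 on GRCh38. The 44 genes are among 20046 protein-coding genes, of which 9830 held a cluster in any list, and they held 3570 of 278185 clusters (1.28%). All 44 genes held clusters.

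The cells were Flp-In T-REx HEK293, an established human embryonic kidney line. There were 3 lines: cells with doxycycline-inducible FLAG-SCAF4, cells with doxycycline-inducible FLAG-SCAF8, and the untagged parental line as control. Each line gave 3 replicates of a FLAG immunoprecipitation (IP) and 3 of its input, so that 6 groups of 3 lists resulted, each list made from 2 libraries, of the soluble and of the chromatin fraction. All cells received the photoactivatable nucleoside 4-thiouridine (4SU), 100 μM overnight and a further 500 μM for 2 h, and were irradiated at 365 nm with 2000 J/m2. The labels give doxycycline at 100 ng/mL for the tagged lines, while the methods name another dose and apply it to the parental cells too, so the dose was not settled here. The cells were wild type for SCAF4 and SCAF8, thus the untagged proteins were present in every line, and the tagged proteins were expressed from a transgene in lines grown from single clones. The lists hold positions and a score and no expression levels, so that the identity of the cells could not be checked on marker genes.

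The nuclear pore complex is a ring of nucleoporins that spans the nuclear envelope. Scaffold nucleoporins build its outer and inner rings, and nucleoporins with phenylalanine-glycine repeats fill the channel and line the cytoplasmic filaments and the nuclear basket. Importins and exportins carry cargo through the channel by binding these repeats, and the small GTPase Ran sets the direction of the exchange.

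The lists differed in depth. The 3 SCAF4 IP lists held 18991, 54404 and 33962 clusters and the 3 SCAF8 IP lists 25189, 18287 and 41502. The input lists of these lines held 4793 to 11715 clusters, the control inputs 4567 to 12493, and the control IP 9638, 2314 and 1621. Counts were therefore scaled to clusters per 10000 clusters of the list where lists were compared. Replicate 1 was sequenced with longer reads than replicates 2 and 3, and its inputs and control IP were the deepest of their groups except for the SCAF8 input, so values without it stand beside the results that it moves. The lists carry no read numbers, and the depth behind a single cluster is unknown beyond the minimum that calling required.

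The sequences below carry the positions to which the results return. Each is the genomic sequence of a region merged from the overlapping clusters of the SCAF4 and SCAF8 IP lists, on GRCh38, 5′ to 3′ on the strand of the gene, with bases of the MANE Select exon in capitals and intron bases in lower case. The first set shows coding regions with clusters in all 6 IP lists of SCAF4 and SCAF8 and in at most 1 input list. In NUP214, IPO11 and TNPO1 the region runs over the 5′ splice site, in NUP205, XPO1 and XPO6 it runs over both ends of the exon, and in RANBP2 it stays within the exon. NUP205 and XPO1 were set aside in the consensus sets by the rule on input density, and their regions are shown for their support in the IP lists.
RANBP2 exon 4 of 29, chr2:108731326-108731431, plus strand: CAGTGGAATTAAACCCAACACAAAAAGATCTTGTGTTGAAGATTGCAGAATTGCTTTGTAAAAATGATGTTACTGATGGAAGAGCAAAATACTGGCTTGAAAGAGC
NUP214 exon 4 of 36, chr9:131129299-131129479, plus strand: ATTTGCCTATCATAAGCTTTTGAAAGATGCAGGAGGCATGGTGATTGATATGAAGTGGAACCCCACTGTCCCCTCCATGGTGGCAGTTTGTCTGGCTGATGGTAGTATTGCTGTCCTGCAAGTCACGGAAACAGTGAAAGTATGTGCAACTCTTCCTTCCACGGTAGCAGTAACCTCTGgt
NUP205 exon 2 of 43, chr7:135571104-135571250, plus strand: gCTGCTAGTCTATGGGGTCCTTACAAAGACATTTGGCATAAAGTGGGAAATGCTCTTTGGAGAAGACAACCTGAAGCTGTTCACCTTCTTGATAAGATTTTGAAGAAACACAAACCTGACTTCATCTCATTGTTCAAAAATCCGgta
IPO11 exon 3 of 30, chr5:62442988-62443107, plus strand: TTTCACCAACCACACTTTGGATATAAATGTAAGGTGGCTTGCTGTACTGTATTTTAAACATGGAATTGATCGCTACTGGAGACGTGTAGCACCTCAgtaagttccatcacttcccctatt
TNPO1 exon 17 of 25, chr5:72893382-72893555, plus strand: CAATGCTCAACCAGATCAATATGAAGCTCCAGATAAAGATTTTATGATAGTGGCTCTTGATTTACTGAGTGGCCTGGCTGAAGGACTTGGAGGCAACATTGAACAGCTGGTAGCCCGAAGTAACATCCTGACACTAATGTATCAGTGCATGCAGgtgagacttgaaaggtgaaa
XPO1 exon 15 of 25, chr2:61492319-61492498, minus strand: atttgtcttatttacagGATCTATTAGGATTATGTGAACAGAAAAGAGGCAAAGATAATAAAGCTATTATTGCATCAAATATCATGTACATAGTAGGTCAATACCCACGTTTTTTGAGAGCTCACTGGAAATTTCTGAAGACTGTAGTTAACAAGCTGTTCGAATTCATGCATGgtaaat
XPO6 exon 13 of 24, chr16:28125670-28125916, minus strand: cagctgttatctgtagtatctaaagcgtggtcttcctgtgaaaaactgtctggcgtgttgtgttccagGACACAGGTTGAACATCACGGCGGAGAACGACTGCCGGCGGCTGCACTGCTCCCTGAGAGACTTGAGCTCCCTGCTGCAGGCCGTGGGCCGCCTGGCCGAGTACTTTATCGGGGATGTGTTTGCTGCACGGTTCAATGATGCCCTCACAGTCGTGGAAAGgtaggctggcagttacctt

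The next pair shows clusters inside introns, away from any splice site. The NUP42 region lay 230 nt from the nearest splice site and was found in 4 of the 6 IP lists and no input. The IPO8 region lay 1350 nt from the nearest splice site and was found in all 6 IP lists and 1 input of the same lines.
NUP42 intron 1 of 6, chr7:23182386-23182486, plus strand: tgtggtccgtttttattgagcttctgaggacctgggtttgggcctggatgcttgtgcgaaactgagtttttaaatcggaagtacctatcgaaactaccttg
IPO8 intron 1 of 24, chr12:30691857-30691997, minus strand: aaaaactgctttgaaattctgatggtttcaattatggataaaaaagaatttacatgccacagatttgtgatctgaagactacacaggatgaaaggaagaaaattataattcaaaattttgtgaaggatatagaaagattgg

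The last sequence is the counterexample. KPNB1 exon 12 had clusters in all 6 IP lists, but also in all 6 inputs of the same lines, in all 3 control inputs and in all 3 control IP lists.
KPNB1 exon 12 of 22, chr17:47670635-47670901, plus strand: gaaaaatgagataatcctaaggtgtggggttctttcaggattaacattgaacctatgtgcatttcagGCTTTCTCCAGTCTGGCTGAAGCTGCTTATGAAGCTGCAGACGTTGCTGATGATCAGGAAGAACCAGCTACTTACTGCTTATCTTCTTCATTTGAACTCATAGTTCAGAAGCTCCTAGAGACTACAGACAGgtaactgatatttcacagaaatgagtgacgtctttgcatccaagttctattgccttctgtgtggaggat

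Clusters in these genes were common in every group. The SCAF4 IP lists held 258, 724 and 451 clusters in the 44 genes, or 136, 133 and 133 per 10000, and the SCAF8 IP lists 349, 245 and 472, or 139, 134 and 114 per 10000. The SCAF4 inputs held 168, 61 and 39 (143, 119 and 81.4 per 10000), and the SCAF8 inputs 136, 95 and 113 (149, 91.7 and 125 per 10000). As a whole set the genes thus took 131 ± 8.88 clusters per 10000 in the 6 IP lists and 118 ± 27.1 in the 6 inputs of the same lines (SD, n = 6 each), and the ranges overlapped. The control IP held 123, 15 and 16 clusters (128, 64.8 and 98.7 per 10000) and the control inputs 211, 47 and 47 (169, 103 and 92.5 per 10000). Between 42 and 44 of the genes had a cluster in any IP list of SCAF4 or SCAF8. The number was 19 to 39 in an input of these lines and 10 to 33 in a control IP. These numbers are not scaled to depth. The SCAF4 and SCAF8 IP lists held 18287 to 54404 clusters, their inputs 4793 to 11715 and the control IP 1621 to 9638. The same share over all genes was not counted, so the numbers show no enrichment in IP.

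**Figure D1:**
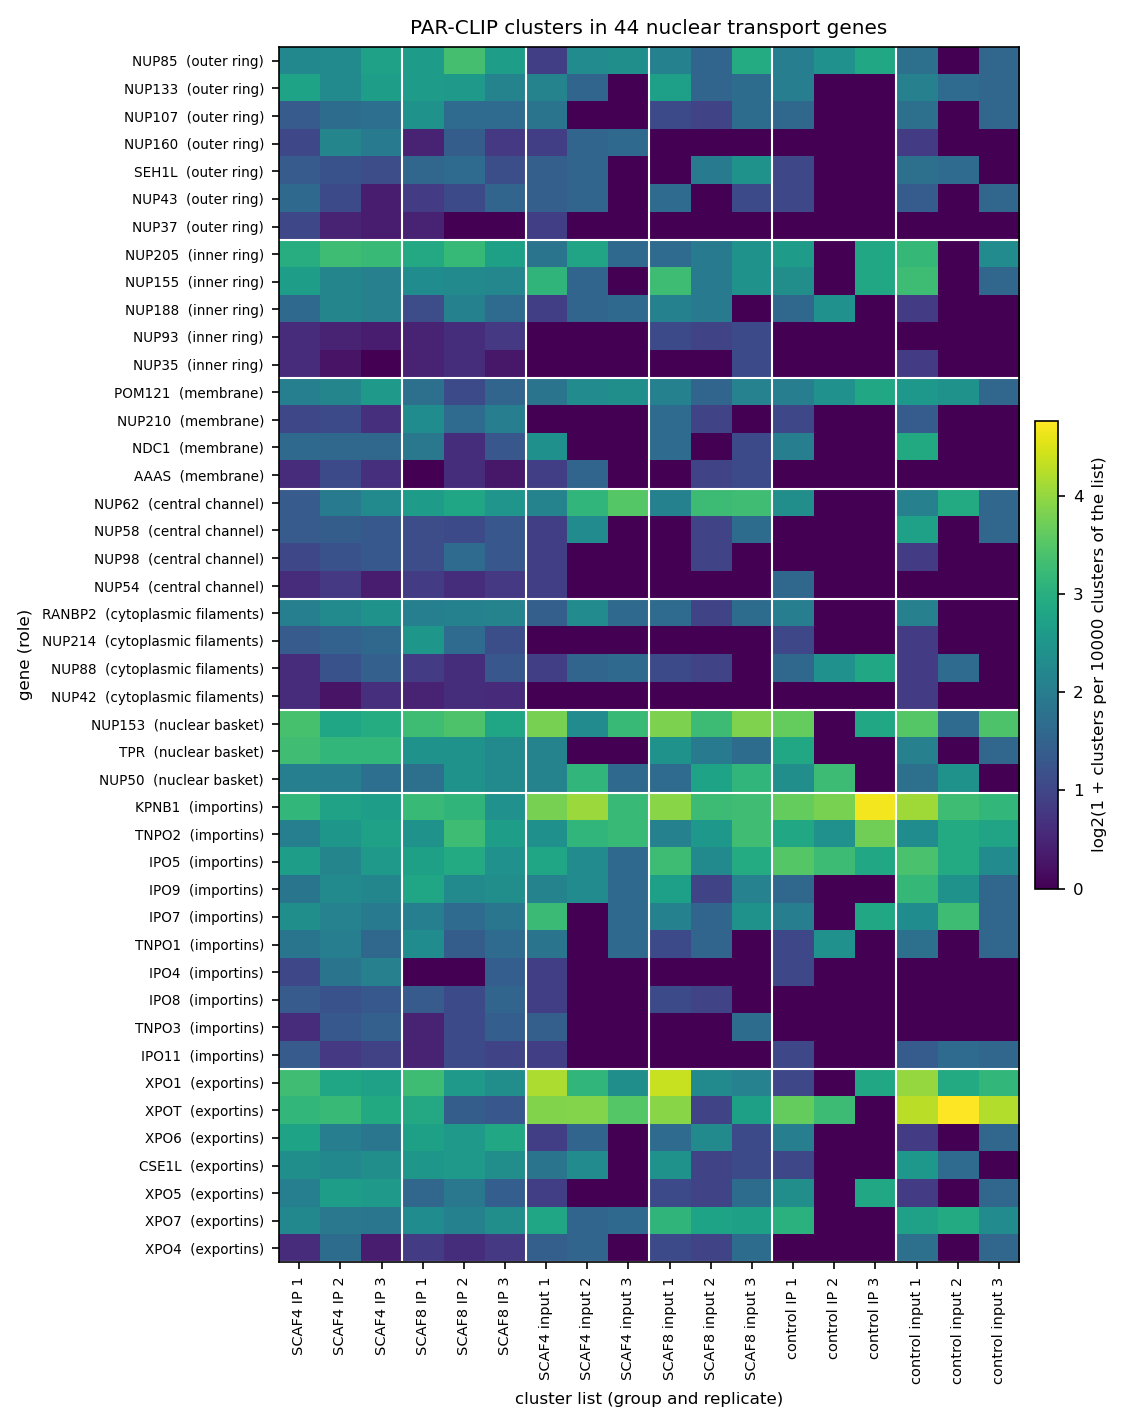
Heat map of the 44 genes (rows, grouped by role) in the 18 cluster lists (columns, grouped by line and by IP or input); colour is log2 of 1 plus clusters per 10000 clusters of the list. The 6 IP columns of SCAF4 and SCAF8, which come from deeper lists than the other columns, have a cluster in 42 to 44 rows. KPNB1, XPOT and XPO1 are coloured in inputs as well.

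A cluster in all 6 IP lists was found in 40 of the 44 genes, beside 37.3% of all 9830 genes with a cluster. A cluster in at least 1 control IP list was found in 33 of the 44, beside 37.8% of all such genes. The median length of the 44 genes was 63.7 kb with 25 exons in the MANE Select transcript, against 36.9 kb and 10 exons for the 9830 genes. Over all these genes, those with a cluster in all 6 IP lists had a median of 38.4 kb and 11 exons and the rest 35.7 kb and 9, while those with and without a control IP cluster had 36.5 kb and 37.3 kb. The part of gene size in these counts was not tested further. The exceptions with fewer than 6 of 6 IP lists were NUP35, NUP37, AAAS and IPO4.

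A rule on the input decided which genes could hold consensus clusters. Following the study's methods, a gene was set aside when merged input regions reached 1 per 10 kb of the gene and its 2 kb flanks, and 23 of the 44 genes were over that limit, beside 23.4% of the 9830 genes. XPOT, the exportin for tRNA, had the highest density with 6.11 input regions per 10 kb. It was followed by KPNB1 (importin beta) with 6.00, NUP62 with 4.83, XPO1 with 4.50, TNPO2 with 3.47 and NUP50 with 3.20. The other 17 genes over the limit had from 1.04 (NDC1) to 2.92 (NUP153) regions per 10 kb. Just above the limit stood NDC1 with 1.04 and TPR with 1.18, and just below it XPO6 with 0.848 and NUP107 with 0.795.

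Cluster counts of these 6 genes show how input and IP lay side by side. XPOT held 15, 46 and 22 clusters in the SCAF4 IP lists, 16, 3 and 6 in the SCAF8 IP lists, 16, 7 and 5 in the SCAF4 inputs and 13, 1 and 5 in the SCAF8 inputs. Its control inputs held 23, 12 and 9 and its control IP 11, 2 and 0, so the untagged cells gave clusters here as well. XPO1, the main exportin for proteins with leucine-rich export signals, held 17, 33 and 19 clusters in SCAF4 IP, 22, 9 and 17 in SCAF8 IP, 20, 4 and 2 in SCAF4 input and 18, 4 and 3 in SCAF8 input. Its control inputs held 19, 3 and 4, but its control IP only 1, 0 and 1. Per 10000 clusters, XPO1 was highest in replicate 1 of SCAF4 IP (8.95, against 6.07 and 5.59) and of SCAF8 IP (8.73, against 4.92 and 4.10), as it was in replicate 1 of the inputs.

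NUP62, the central FG nucleoporin of the channel, held 3, 16 and 13 clusters in SCAF4 IP and 13, 11 and 19 in SCAF8 IP, with 4, 4 and 5 and 3, 9 and 8 in the inputs. All of its 120 midpoints also lay within IL4I1 on the same strand and 78 within ENSG00000269179, so that clusters of NUP62 and these annotated genes cannot be told apart by position. TNPO2, a close relative of transportin 1, held 6, 26 and 19 in SCAF4 IP and 11, 16 and 22 in SCAF8 IP, with 5, 4 and 4 and 3, 5 and 8 in the inputs. NUP50, a basket nucleoporin that helps release importin cargo, held 6, 17 and 8 and 6, 8 and 16 in the IP lists, with 4, 4 and 1 and 2, 6 and 7 in the inputs. In clusters per 10000 the ranges of IP and input overlapped for all 3 genes.

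After the filters, a consensus cluster of SCAF4 (in at least 2 of 3 IP lists, overlapping clusters of at most 1 of the 9 inputs and none of the control IP) was found in 18 of the 44 genes, beside 41.5% of the 9830 genes. A consensus cluster of SCAF8 was found in 16, beside 27.7%, and a pooled one (in at least 2 of the 6 IP lists) in 19, beside 52.6%. Counted among genes under the limit of input density, the same 18, 16 and 19 genes were of 21, beside 53.8%, 35.9% and 68.1% of 7534 genes. With the density rule left out, 41, 37 and 42 of the 44 genes held such clusters, beside 59.5%, 43.1% and 72.5%. The clusters numbered 76 for SCAF4, 45 for SCAF8 and 113 pooled with the rule, and 239, 140 and 345 without it. Of the 44 genes, 15 held consensus clusters of both proteins with the rule, beside 22.6% of the 9830 genes, and 36 without it, beside 36.9%. Without replicate 1 in any group, 31 genes and 243 clusters were pooled consensus, while leaving out replicate 2 or 3 gave 71 and 63 clusters. Fewer IP lists and inputs then entered the rule, and the shares over all genes were not counted. NUP35 and NUP93, both of the inner ring, were the genes under the limit that held no pooled consensus cluster, and they held none without the density rule either.

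By role, the pooled consensus clusters were spread unevenly. The 4 genes of the cytoplasmic filaments, RANBP2, NUP214, NUP88 and NUP42, were all under the limit of input density and held 26 clusters together. The 3 basket genes, TPR, NUP153 and NUP50, were all over it and held 0, although the 6 IP lists of SCAF4 and SCAF8 held 322 clusters in them, and 39 remained when density was not used. The 7 exportins held 27 clusters in 3 genes and the 10 importins 22 in 4 genes. The 7 genes of the outer ring held 17 in 3 genes, the 5 of the inner ring 7 in 1 gene (NUP188), the 4 of the membrane 7 in 2 genes and the 4 of the central channel 7 in 2 genes. Without the density rule the same roles held 72 and 78 clusters for exportins and importins, 51 for the outer ring, 42 for the inner ring, 18 for the membrane, 19 for the channel and 26 for the filaments.

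The cytoplasmic filaments dock export complexes at the outer face of the pore. RANBP2 (NUP358), the giant filament protein that binds Ran and carries SUMO ligase activity, held 6, 21 and 15 clusters in SCAF4 IP, 8, 6 and 14 in SCAF8 IP, 2, 2 and 1 in SCAF4 input and 2, 1 and 2 in SCAF8 input. Its 10 pooled consensus clusters lay in exons 1, 4, 9, 16, 20, 24, 26 and 28 of 29 and in intron 1, and exon 4, printed above, had clusters in all 6 IP lists and in no input. Of its 70 IP clusters 14 crossed a splice site. RANBP2 has near-identical copies: the 7 RGPD genes held 7, 25 and 19 clusters in SCAF4 IP, 8, 3 and 12 in SCAF8 IP, and 2, 0 and 1 and 1, 1 and 0 in the inputs. The aligner kept 1 place for a read that fitted several, so RANBP2 counts and RGPD counts can hold reads of each other.

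NUP214, which with NUP88 forms the docking site of XPO1, held 3, 10 and 7 clusters in SCAF4 IP and 12, 4 and 5 in SCAF8 IP. All 6 inputs of the 2 lines were at 0, and 1 control IP and 1 control input list held 1 cluster each. Every IP list was thus above every input of the same lines. Its 10 pooled consensus clusters lay in exons 1, 2, 4, 11, 16, 20 and 29 of 36 and in introns 4, 24 and 30, and that of exon 4, printed above with its 5′ splice site, was in all 6 IP lists.
NUP88 held 1, 7 and 6 clusters in SCAF4 IP and 2, 1 and 6 in SCAF8 IP, with 5 clusters in its 6 inputs together. Its 5 consensus clusters included exons 1, 2 and 5 and intron 3, and 1 outside the MANE Select transcript.
NUP42, a partner of the mRNA export factor GLE1, held few clusters, 1, 1 and 2 in SCAF4 IP and 1, 1 and 2 in SCAF8 IP, and 0 in the 6 inputs. Its only consensus cluster was the intronic sequence printed above.

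The outer ring, or Y complex, forms the coats of the pore. NUP107 held 3, 12 and 8 clusters in SCAF4 IP, 11, 4 and 9 in SCAF8 IP, 3, 0 and 0 in SCAF4 input and 1, 1 and 2 in SCAF8 input. Only 16 of its 47 IP midpoints were exonic. Its 9 consensus clusters lay in exons 6, 12, 13 and 16 of 28 and introns 1, 6, 8 and 25, and that of intron 8 lay within KRT8P39, an annotated processed pseudogene in which 14 midpoints fell in all. NUP160 held 2, 19 and 10 clusters in SCAF4 IP, 1, 3 and 3 in SCAF8 IP, 1 in each SCAF4 input and 0 in each SCAF8 input. Its 7 consensus clusters lay in exons 6, 7, 12, 28 and 30 of 36 and introns 2 and 7. NUP37 held 1 consensus cluster, in exon 2 of 10. NUP133, NUP85, NUP43 and SEH1L were over the density limit, and NUP133 and NUP85 each held 14 regions that met the other criteria.

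The inner ring joins the coats to the membrane and the channel. NUP188 held 4, 19 and 11 clusters in SCAF4 IP, 3, 6 and 9 in SCAF8 IP, 1 in each SCAF4 input and 3, 3 and 0 in SCAF8 input. Its 7 consensus clusters lay in exons 12, 21, 26, 31 and 34 of 44 and introns 1 and 23, and 38 of its 52 IP clusters crossed a splice site. The intron 1 cluster also lay within ENSG00000251184 on the same strand. NUP205, a related scaffold protein, held 13, 48 and 28 clusters in SCAF4 IP, 16, 15 and 23 in SCAF8 IP, 3, 3 and 1 in SCAF4 input and 2, 3 and 4 in SCAF8 input. It was over the limit with 1.79 input regions per 10 kb, and 25 regions met the other criteria, in 17 of its 43 exons and in 6 introns. NUP35 held 1, 1 and 0 clusters in SCAF4 IP and 1 in each SCAF8 IP list, and NUP93 1, 2 and 1 and 1, 1 and 3, the fewest in this ring. NUP93 had clusters in exon 8 in all 6 IP lists, but this region also overlapped clusters of 3 of the 6 inputs of these lines.

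Of the nucleoporins grouped by role under the membrane, NUP210 held 2, 6 and 2 clusters in SCAF4 IP and 10, 4 and 13 in SCAF8 IP. It held 0 in the SCAF4 inputs and 2, 1 and 0 in the SCAF8 inputs. Its 6 consensus clusters lay in exons 10, 17, 21 and 40 of 40 and in intron 20, where 2 regions 1612 and 3563 nt from a splice site each had clusters in 1 SCAF4 and 2 SCAF8 IP lists. POM121 held 6, 19 and 17 in SCAF4 IP, 6, 2 and 8 in SCAF8 IP, and 3, 2 and 2 and 3, 2 and 3 in the inputs. Its copies POM121B and POM121C held 4, 18 and 15 in SCAF4 IP and 4, 4 and 9 in SCAF8 IP, so the counts of these 3 genes are uncertain in the same way as those of RANBP2. AAAS held 1 consensus cluster, in exon 2, and NDC1 was over the limit.

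The channel is filled by FG repeats of NUP62, NUP58, NUP54 and NUP98. NUP98, which is made as a precursor of the FG protein and of a Y-complex scaffold protein, held 2, 7 and 5 clusters in SCAF4 IP, 3, 4 and 6 in SCAF8 IP, 1, 0 and 0 in SCAF4 input and 0, 1 and 0 in SCAF8 input. Its 6 consensus clusters lay in exons 3, 11, 19 and 20 of 33 and in intron 1, 7323 and 1526 nt from a splice site. NUP54 held 1 consensus cluster, in exon 11 of 12, and NUP58 and NUP62 were over the limit.

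Of the importins, TNPO1 (transportin 1), an import receptor, held 5, 17 and 7 clusters in SCAF4 IP, 10, 3 and 9 in SCAF8 IP, 3, 0 and 1 in SCAF4 input and 1, 2 and 0 in SCAF8 input. Its 10 consensus clusters all lay in exons (2, 4 to 9, 16, 17 and 20 of 25), and the cluster of exon 17, printed above, was in all 6 IP lists. IPO8 held 3, 7 and 5 in SCAF4 IP, 4, 2 and 8 in SCAF8 IP, 1, 0 and 0 in SCAF4 input and 1, 1 and 0 in SCAF8 input, and 0 in all control lists. Its 7 consensus clusters lay in exons 6, 10, 12, 16 and 23 of 25 and introns 1 and 24. IPO11 held 3, 4 and 3 in SCAF4 IP and 1, 2 and 4 in SCAF8 IP, with 1 cluster in its 6 inputs. Its 3 consensus clusters, in exons 3 and 5 and intron 21, all lay within ENSG00000288643 on the same strand as well. TNPO3, the importin for SR splicing factors, held consensus clusters in exons 1 and 20 of 23.

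The importins KPNB1, IPO4, IPO5, IPO7, IPO9 and TNPO2 were over the limit. KPNB1, the importin that carries classical cargo together with importin alpha, held 15, 31 and 18 clusters in SCAF4 IP, 21, 14 and 18 in SCAF8 IP, 15, 8 and 4 in SCAF4 input and 13, 9 and 8 in SCAF8 input. Its control IP held 11, 3 and 4 and its control inputs 20, 4 and 4. Of its regions 12 were in all 6 IP lists, and none of these 12 met the criteria for overlap with inputs and control IP. Exons 3, 12 and 21 had clusters in all 6 inputs, all 3 control inputs and all 3 control IP lists as well, as described above for exon 12. IPO4, a histone importin of only 8651 nt, had 1.58 input regions per 10 kb. When an input region was counted in 1 gene only, an alternative chosen after seeing the data, IPO4 fell under the limit and its 9 regions entered the pooled set.

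Of the exportins, XPO6, the exporter of actin with profilin, held the most consensus clusters, 14. It held 11, 17 and 9 clusters in SCAF4 IP, 14, 9 and 26 in SCAF8 IP, 1, 1 and 0 in SCAF4 input and 2, 4 and 1 in SCAF8 input. The consensus clusters lay in exons 2, 4, 7, 9, 10, 11, 13, 16, 19, 21 and 24 of 24 and introns 4 and 23. Those of exons 7, 13 and 24 were in all 6 IP lists, with exon 24 in its 3′ untranslated region. XPO5, the exporter of microRNA precursors, held 6, 29 and 17 in SCAF4 IP, 5, 5 and 7 in SCAF8 IP, 1, 0 and 0 in SCAF4 input and 1, 1 and 2 in SCAF8 input. Its 10 consensus clusters lay in exons 1, 4, 7, 17, 19, 22, 23, 26 and 32 of 32 and in intron 14, and those of exons 1 and 19 and of intron 14 were in all 3 SCAF4 IP lists and in no SCAF8 IP list. XPO4 held 3, in exon 18 of 23 and introns 4 and 6, while XPO1, XPO7, XPOT and CSE1L were over the limit.

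The IP lists were then compared with the inputs of the same lines, gene by gene, in clusters per 10000, by a two-sided exact permutation test over all splits of 12 lists and with p-values adjusted (Benjamini-Hochberg) over the 6399 genes tested. Of the 44 genes 8 were called higher in IP, beside 8.33% of all genes tested, and 1 was called lower, beside 4.8%. Those higher were NUP214, NUP98, IPO8, NUP42, NUP205, TPR, XPO5 and IPO11, and KPNB1 was lower. The smallest p that this test can give is 0.00216. Each input was taken from the extract of the IP of the same line and number. The test was also run with a replicate block, in which lists were exchanged only within a number. Lists of the SCAF4 and SCAF8 lines could change places in a block, so an IP was not tied to its own input. A test paired by line and number was not run. The blocked exact test had 216 splits and a smallest p of 0.00926. Its smallest adjusted p was 0.0703, and 0 of the 44 genes and 0 of all genes were called. At an unadjusted p under 0.05, 14 of the 44 were higher and 2 lower in this blocked exact test, beside 23.3% and 8.69% of all genes tested. The calls that follow therefore rest on the unpaired test.

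NUP214 took 2.27 ± 1.27 clusters per 10000 in the IP lists and 0 in the inputs (SD, n = 6 each, as for the following genes). NUP98 took 1.44 ± 0.399 and 0.303 ± 0.471, IPO8 1.49 ± 0.286 and 0.485 ± 0.537, and NUP42 0.454 ± 0.148 and 0. In these 4 genes no IP list overlapped an input, with an exact permutation p = 0.00216 and an adjusted p = 0.0235 in each. NUP214 and NUP42 reached the minimum of 6 clusters only through the IP lists, and so did NUP98, IPO8, IPO11 and XPO5. The 6 inputs together held 0 clusters of NUP214 and of NUP42, 2 of NUP98, 3 of IPO8, 1 of IPO11 and 5 of XPO5. The calls of these genes therefore carry no support of their own. At the share of the IP lists the 6 inputs together would hold 10.7 clusters of NUP214 and 2.09 of NUP42. IPO8 separated by the narrowest margin, with 1.094 in the lowest IP list and 1.093 in the highest input. KPNB1 took 6.54 ± 1.64 per 10000 in the IP lists, from 4.34 to 8.34, and 11.4 ± 3.19 in the inputs, from 8.35 to 15.6, with the same p and adjusted p. Its direction turns when counts are not scaled, since the IP lists held 117 clusters in KPNB1 and the inputs 57.

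NUP205 took 7.33 ± 1.28 clusters per 10000 in IP and 3.34 ± 1.503 in the inputs (exact permutation p = 0.00433, adjusted p = 0.0385). TPR, the coiled-coil protein of the basket, took 6.23 ± 2.27 and 2.15 ± 1.81, XPO5 3.32 ± 1.53 and 0.855 ± 0.824, and IPO11 0.942 ± 0.393 and 0.142 ± 0.348 (each exact permutation p = 0.00649, adjusted p = 0.0495). In these 4 genes the ranges of IP and input overlapped. XPO6 with 4.72 against 1.66 and RANBP2 with 3.54 against 2.18 missed the threshold at an adjusted p = 0.0621 of the exact permutation test. Against all 9 inputs, control inputs included, XPO6 and RANBP2 were called, while NUP42 (adjusted p = 0.0530) and IPO11 (a difference of 0.207, adjusted p = 0.754, exact permutation test) were not.

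**Figure D2:**
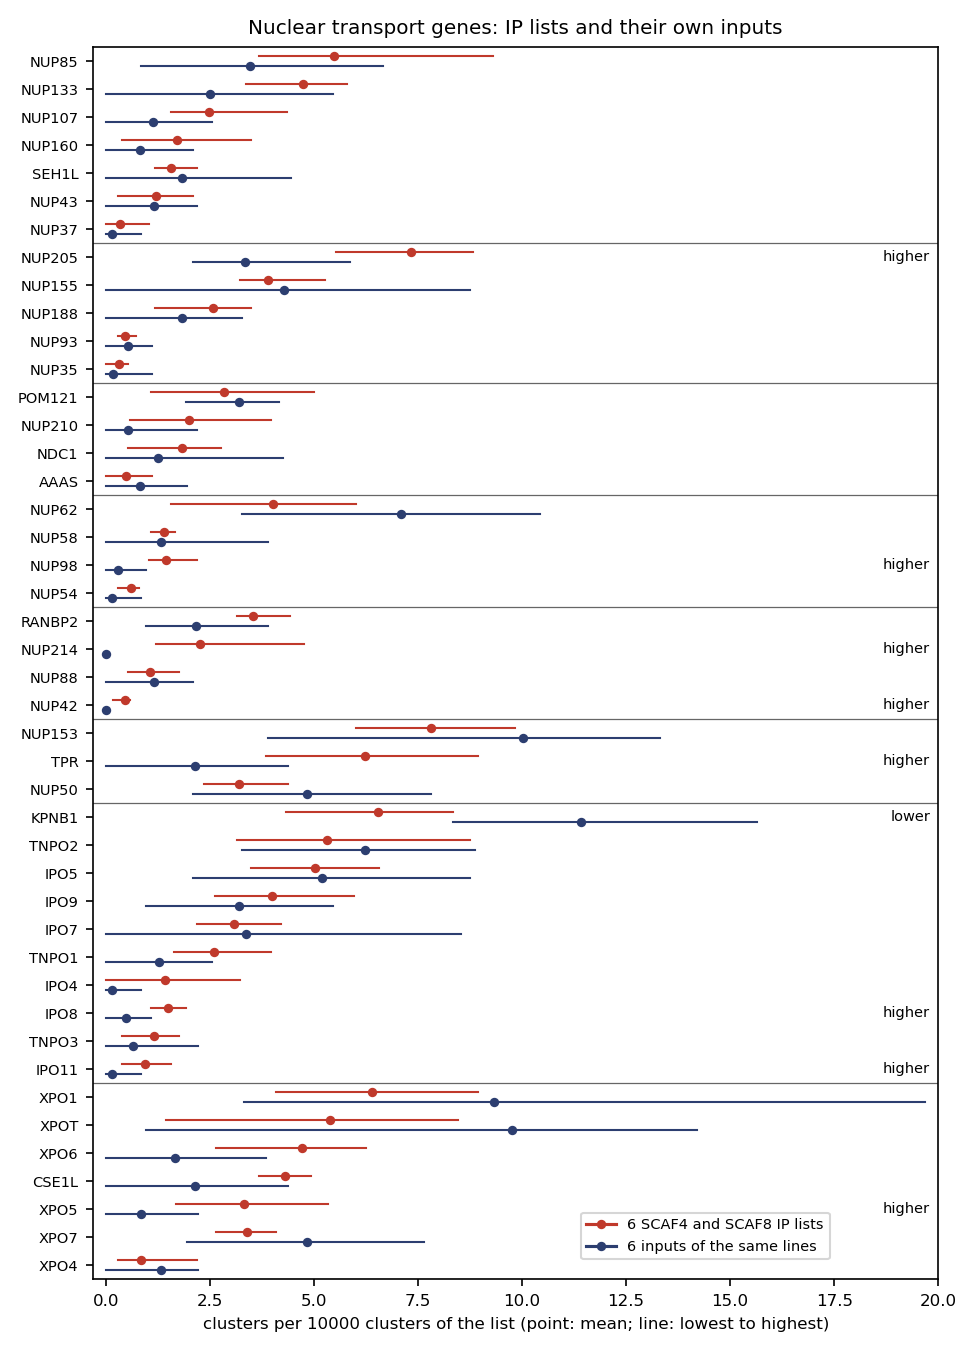
Clusters per 10000 clusters of the list for each of the 44 genes, as mean (point) and range (line) over the 6 IP lists of SCAF4 and SCAF8 and the 6 inputs of the same lines, with called genes marked. NUP214 stands at 2.27 in IP and 0 in the inputs, and KPNB1 is the gene called lower, at 6.54 against 11.4.

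Among the 44 genes the difference was above 0 in 27, beside 67.2% of all 6399 genes. At an unadjusted p under 0.05, 15 were higher and 1 lower, beside 23.5% and 8.97%. The median difference was 0.458 clusters per 10000, beside 0.277 over all genes tested. Leaving out any replicate number left 70 splits with a smallest exact p of 0.0286 and also gave 0 calls, with smallest adjusted p of 0.107, 0.137 and 0.182 and 8, 7 and 5 of the 44 genes higher at an unadjusted p under 0.05, beside 18.9%, 14.3% and 10.1% of the genes tested. With midpoints shared with another gene left out, IPO11 had too few clusters to be tested. Of the 44 genes 5 were then called higher, beside 374 of all 5524 genes tested.

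SCAF4 and SCAF8 were compared with each other in their 3 IP lists each, as a description, since an exact test of 3 lists against 3 cannot go below p = 0.1. Of 43 genes with enough clusters, 5 had all SCAF4 lists above all SCAF8 lists, beside 10.4% of 6144 genes, and 2 had the reverse, beside 6.48%. The shares of these genes were thus near those of all genes.

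TPR took 8.95, 7.90 and 7.95 clusters per 10000 in SCAF4 IP and 4.37, 4.37 and 3.86 in SCAF8 IP (mean 8.27 ± 0.592 against 4.20 ± 0.298, SD, n = 3). XPO5 took 3.16, 5.33 and 5.01 against 1.98, 2.73 and 1.69. The others higher in SCAF4 were XPOT (7.61 ± 1.02 against 3.15 ± 2.78), POM121 (3.89 ± 0.984 against 1.80 ± 0.653) and NUP58 (1.57 against 1.24), where the lists almost met. NUP210 took 1.05, 1.10 and 0.589 in SCAF4 IP and 3.97, 2.19 and 3.13 in SCAF8 IP, and NUP62 2.78 ± 1.13 against 5.25 ± 0.723. In raw counts only TPR was without overlap. When each list was cut at its median score TPR remained for SCAF4, while NUP50, NUP62, NUP98 and NUP210 were higher for SCAF8. The shares over all genes were not counted in these settings.

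**Figure D3:**
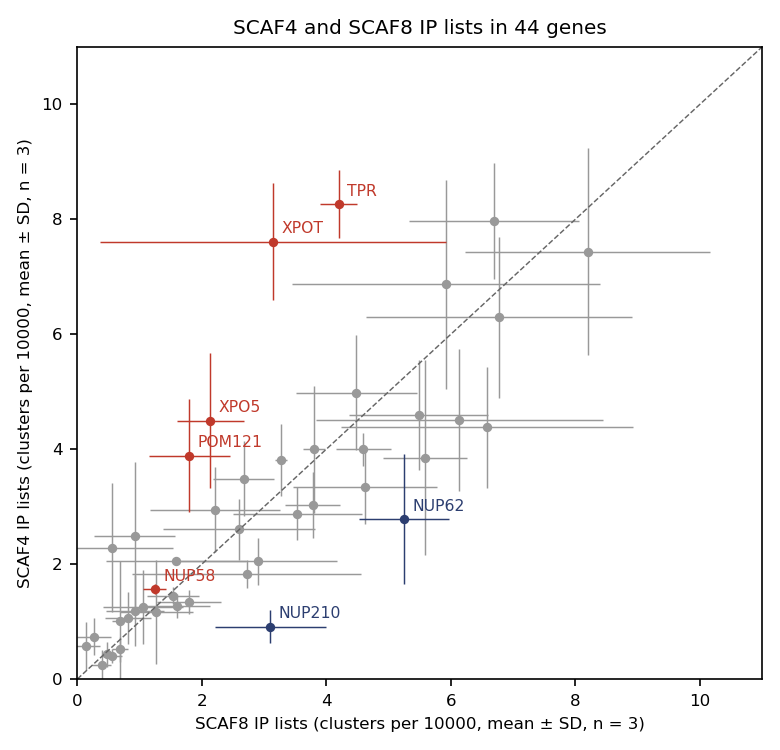
Mean clusters per 10000 clusters of the list in SCAF8 IP (x axis) and SCAF4 IP (y axis) for the 44 genes, with SD over 3 lists as bars and 7 genes named whose lists did not overlap. TPR lies at 4.20 in SCAF8 IP and 8.27 in SCAF4 IP, NUP210 at 3.10 and 0.915, and most genes lie near the diagonal.

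Within the genes, most midpoints were exonic. In the MANE Select transcripts 72.0 ± 5.94% of the IP midpoints lay in exons (n = 6, 64.4 to 81.7%), although exons make up 8.36% of the length of these transcripts. The inputs of the same lines stood at 64.1 ± 7.36% (55.3 to 72.1%), the control IP, without a tagged protein, at 78.9 ± 9.18% (68.8 to 86.7%, n = 3) and the control inputs at 46.8 ± 9.25%. The mean exon share of the control IP was thus not below that of SCAF4 and SCAF8 IP, but its 3 lists rest on 122, 15 and 16 midpoints. The difference of 7.95 percentage points between IP and input was not even over pairs of the same number: it was 21.2, -7.70 and 18.3 for SCAF4 and 11.8, 3.76 and 0.270 for SCAF8. In the other protein-coding genes the shares were 68.3% in IP and 67.3% in the inputs.

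The kind of exon differed more. Coding sequence held 59.6% of the IP midpoints and 40.0% of the input midpoints, whereas 3′ untranslated regions held 10.1% and 22.8% and the last exon 12.1% and 25.4%. The control IP, without a tagged protein, had 65.5% in coding sequence, 12.5% in 3′ untranslated regions and 13.1% in the last exon, nearer to the SCAF4 and SCAF8 IP than to the inputs. In the other protein-coding genes coding sequence held 50.9% in IP and 38.3% in the inputs. The first exon held 4.12% and 1.71% in the 44 genes, and intron 1 held 6.03% and 7.66%. NUP50 shows the last exon in both: 26 of its 61 IP midpoints and 18 of its 24 input midpoints were in the 3′ untranslated region. XPO1 shows introns, with 26 of 117 IP midpoints and 16 of 51 input midpoints in intron 1.

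Clusters crossed splice sites more often in IP. Of the IP clusters in the 44 genes, 43.0 ± 5.34% (38.6 to 50.4%, n = 6) covered an exon border, against 15.3 ± 4.15% (9.73 to 20%) of the clusters in the inputs of the same lines, without overlap. The control IP stood between, at 22.3 ± 8.02% (13.3 to 28.7%, n = 3), and the control inputs at 12.4% (8.51 to 20.1%). The 3 control IP lists rest on 122, 15 and 16 clusters here. SCAF4 IP lists had 47.1 ± 4.75% and SCAF8 IP lists 39.0 ± 0.561%. The other protein-coding genes had 32.4 ± 3.98% (27.6 to 37.8%) in the IP lists and 16.3 ± 0.766% in the inputs, and no test was run over the chosen genes. The 5′ splice site was covered by 30.8% of IP clusters and 9.87% of input clusters and the 3′ splice site by 23.9% and 7.05%.

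Cluster length was compared as well. The median length per list was 144 nt (132 to 149) in IP and 133 nt (121 to 151) in the inputs. Among clusters up to 100 nt 28.6% (14.9 to 38.5%) crossed a splice site in IP and 6.51% (0 to 13.3%) in the inputs, and among longer ones 45.8% (40.9 to 52.99%) and 17.2% (11.9 to 21.7%). Genes differed: 71 of 122 IP clusters of TPR and 83 of 117 of KPNB1 crossed a site, and 25 of 34 of IPO4, but 14 of 70 of RANBP2. In KPNB1 27 of 57 input clusters did so as well, and in TPR 1 of 13.

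**Figure D4:**
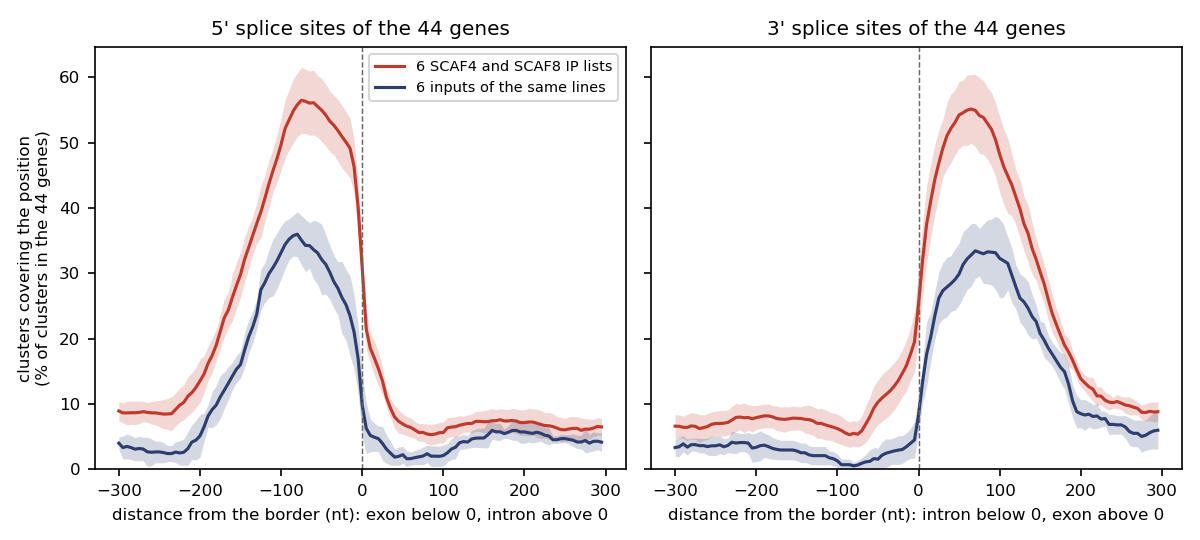
Share of clusters that cover each position within 300 nt of the 5′ splice site (left) and of the 3′ splice site (right) in the 44 genes, as mean with SD over the 6 IP lists of SCAF4 and SCAF8 and over the 6 inputs of the same lines. In the IP lists coverage is highest on the exon side of both borders, and 30.8% and 23.9% of the clusters cross the 5′ and the 3′ splice site.

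The 113 pooled consensus regions were placed on exon ranks. In exons lay 84 and in introns 28, and 1 was outside the MANE Select transcript. Of the 84, 79 were coding, 3 in a 5′ and 2 in a 3′ untranslated region, 5 in the first exon, 4 in the last and 75 in internal exons. Of the 28 in introns, 9 were in intron 1 and 9 within 500 nt of a splice site. A splice site was covered by 71 (62.8%), the 5′ site by 54, the 3′ site by 38 and both by 21. Among regions inside transcripts 63.4% covered one, beside 45.9% in the other protein-coding genes. The exonic share was 75.0%, beside 73.9%. Clusters of both proteins' lists made up 83 of the regions, those of SCAF4 only 27 and of SCAF8 only 3, and 8 regions were in all 6 lists while 49 were in only 2.

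Along the transcripts the 84 exonic regions were spread over all ranks. With each gene's exon ranks cut into 4 equal parts, 27 lay in the 5′-most part, 20 and 18 in the next parts and 19 in the 3′-most part. Without the density rule 240 of the 345 regions were exonic, 69, 58, 53 and 60 in the same 4 parts. Of the 345, 222 covered a splice site and 101 were in introns. TPR then had regions in 18 of its 51 exons, NUP205 in 17 of 43, XPO1 in 12 of 25, NUP133 in 11 of 26 and XPO6 in 11 of 24.

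**Figure D5:**
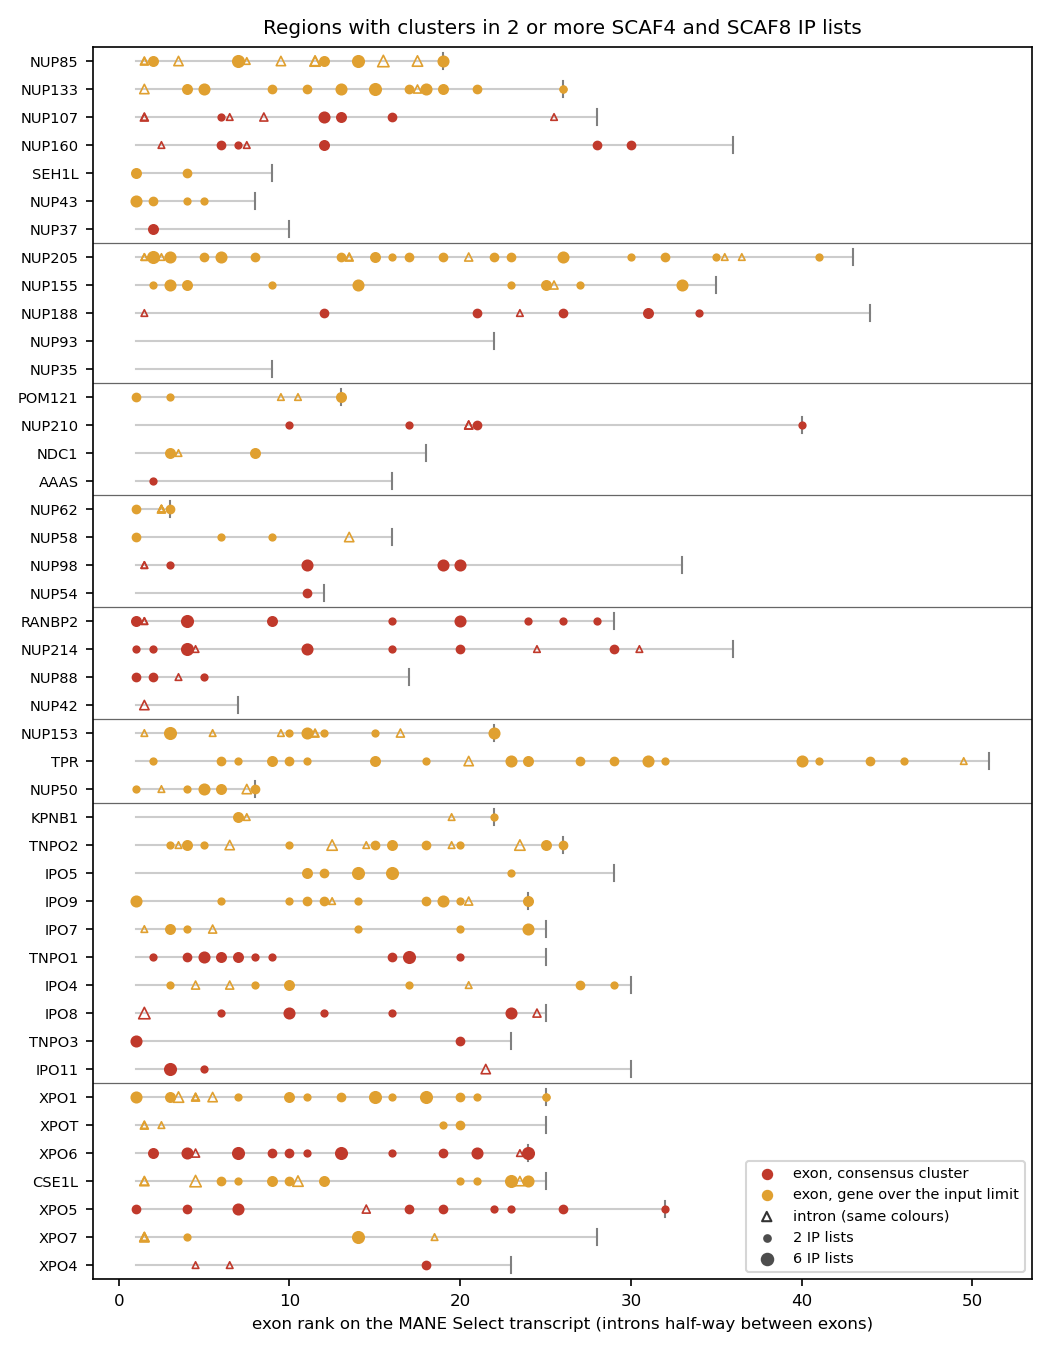
Regions with clusters in at least 2 of the 6 IP lists that met the criteria for inputs and control IP, along the exon rank of the MANE Select transcript (x axis) for each gene (y axis). Red marks the 113 regions of the pooled consensus set and orange those in genes over the limit of input density; circles are exons, triangles introns, and size gives the number of IP lists.

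Short sequence matches were counted in windows of 101 nt at the middle of the regions, on the strand of the gene. GTAAG, the letters of a strong 5′ splice site, were in 13.3% of the 113 windows, beside 7.02% of 13776 windows of other protein-coding genes, and are seen in the IPO11 sequence above at the exon border. CGG or CGA were in 56.6%, beside 72.2%. GCAGC or GCAGG or CCAGC or CCAGG were in 34.5%, beside 44.6%, and CTCC or CACC in 39.8%, beside 48.7%. AATAAA, the letters of the polyadenylation signal, were in 4.42%, beside 3.07%, and T made up 26.8% of the bases, beside 23.7%. The RANBP2 sequence of exon 4 and the IPO8 sequence of intron 1 hold none of the searched words. These shares are a description of letters and carry no test.

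Overlap with other annotated genes touched few of the 44. Of the 3570 midpoints 219 (6.13%) also lay in another gene on the same strand. They were 120 in NUP62, 35 in IPO4 (ENSG00000259522), 14 each in IPO11, NUP107 and NUP133, 11 in NUP188, 7 in XPO5 and 2 each in IPO7 and TNPO2. In a further list of 23 genes of the transport pathway, such as the Ran cycle and the importin alpha family, all 23 held a cluster, 11 were over the density limit, and 8 held SCAF4, 5 SCAF8 and 9 pooled consensus clusters.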

How the data were processed

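Each of the 18 deposited lists holds clusters, one per line, with position, strand and a score between 0.502 and 1. According to the methods, reads were processed with bcl2fastq 1.8, Trim Galore and cutadapt, aligned to GRCh38 with Bowtie2 2.2.9 and freed of duplicates with Picard, the soluble and chromatin libraries of a replicate were combined, and clusters were called by the authors with PARalyzer (version not given in the sources used here). The score in the deposited lists was used only in an alternative setting. All 24 chromosome names and all cluster ends fitted the reference.

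Midpoints were placed in GENCODE 44 genes on the same strand, and exon ranks were counted on the MANE Select transcript. Consensus regions were rebuilt after the study's criteria and are not its own sets, since input overlap was counted here in lists and input density in merged regions: 10168 SCAF4 and 5246 SCAF8 regions resulted. Both sets are smaller than those the study reports, so genes without a consensus cluster here can hold one in the study. Clusters were merged on 1 strand with at least 1 nt of overlap and kept with support from at least 2 lists, overlap with clusters of at most 1 of 9 inputs, under 1 input region per 10 kb of gene with 2 kb flanks, and no control IP cluster. How input regions in overlapping genes were counted was not given in the sources used here. Genes with at least 6 clusters in the 12 lists were tested by exact permutation and adjusted by Benjamini-Hochberg (threshold 0.05), with lists as replicates. IP and input of 1 line and number share an extract. The correlation of their deviations from the group means over 4558 genes was 0.154, 0.00924 and 0.149 for SCAF4 and 0.392, 0.180 and 0.0956 for SCAF8. The highest correlation with an input of another number was -0.0689, 0.00633 and 0.0972 for SCAF4 and -0.237, 0.170 and 0.102 for SCAF8. In replicate 3 of SCAF8 another input thus stood above its own. The test was checked on simulated data. Python 3.11.15, numpy 2.4.6, scipy 1.17.1 and matplotlib 3.10.9 were used.

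Values per list are given for the 10 genes with most pooled consensus clusters (11 with ties), those called against input, the 6 with the highest input density, and RANBP2 and POM121, which have copies. The genes and lists were chosen with earlier results of these data known. Sequences were read from GRCh38. Reads per cluster are not in these files, and the depth of a cluster is unknown.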

Additional observations from a re-analysis of the deposited data

How the results depend on the processing

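The number of clusters that pass depends on the inputs and on replicates. Requiring all 3 replicates left 8 genes with SCAF8 consensus clusters (16 as reported). Requiring any 3 instead of 2 of the 6 IP lists left 64 pooled clusters (113). Without the rule on input density 41, 37 and 42 genes and 345 clusters passed. Leaving out each replicate number gave 12 to 30 genes for SCAF4, 11 to 27 for SCAF8, 16 to 31 pooled and 63 to 243 clusters, the highest each time without replicate 1.

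Calls against input were 0 higher and 0 lower with the replicate block, with each list cut at its median score and without any replicate number. At the median score 7 were higher and 1 lower at an unadjusted exact permutation p under 0.05, beside 13.4% and 4.75% of genes tested. Without a replicate number 5 to 8 were higher at that p, beside 10.1 to 18.9%. Against all 9 inputs 11 were called higher, XPO6 and RANBP2 among them but not NUP42 or IPO11, beside 1494 of all 6480 genes tested. Without scaling 32 were higher and 0 lower, beside 3093 and 0 of 6399. With genes of at least 1 cluster 4 were higher, beside 385 of 9777. With shared midpoints left out 5 were higher, beside 374 of 5524. That alternative was chosen after seeing the data, as was counting each input region in 1 gene only. KPNB1 reversed without scaling, by 10.0 clusters more per IP list than per input. TPR, XPO5, NUP205, NUP214, NUP98 and IPO8 kept their direction in 11 of 11 settings, IPO11 in 10 of 10 and NUP42 in 8 of 8 that could test them. These settings reuse the same lists, so a shared direction is weak support. The genes were called in fewer: TPR in 3, XPO5 in 4, NUP205 in 5, and NUP214, NUP98 and IPO8 in 6 each. IPO11 was called in 3 and NUP42 in 4. SCAF4 lists were all above SCAF8 lists for 1 gene unscaled, 1 at the median score, and 8 to 14 without a replicate, and the reverse for 0, 4, and 7 to 8. The difference in exon share moved by less than the spread between lists, from 3.65 to 12.9 without a replicate. Pairing by number must give the same mean of 7.95, so it is no check. The single pairs ran from -7.70 to 21.2. The cause of these changes was not tested. The shallow control IP lists limit what the control filter can remove.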
